A study of Mus musculus with 24 samples.

Results

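Lung RNA of mice dosed with Graphite was compared with lung RNA of mice dosed with the vehicle alone, across all genes measured on 2-colour expression arrays. The 4 samples named Graphite (Graphite 13 to 16) and the 3 samples named Ctrl (Ctrl 1 to 3) were chosen by the group name in their titles, and are 7 of the 24 samples in the series. All were from female C57BL/6 mice aged 7 to 8 weeks. Graphite mice received 10 µg of the material per day in 50 µl of PBS for 4 days by oropharyngeal aspiration, where the mouse inhales a drop set behind its tongue. Ctrl mice received PBS by the same route and on the same days. Dissection followed the last dose by 24 h, and RNA of 2 mice was pooled per sample. The remaining 17 samples followed dosing with another carbon material at the same dose (rCNT, tCNT and SES with 3 samples each, BayTubes and fullerene with 4 each) and enter below only where Graphite was set against them. The size and form of the graphite particles and the time of day of dosing and dissection are not given in the sources used here.

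Graphite is carbon in stacked flat sheets, without the fibre shape of a nanotube. Particles that reach the alveoli are taken up by resident macrophages, and macrophages and epithelium can answer with chemokines, small secreted proteins that draw monocytes and neutrophils out of the blood, and with acute phase proteins of the serum amyloid A family. Tissue that gains dividing cells shows more RNA of the genes that copy DNA and divide cells. The lung also keeps circadian time: the transcription factor made by Arntl (BMAL1), with its partner Clock, drives the Per, Cry and Nr1d genes, and the REV-ERB proteins made by Nr1d1 and Nr1d2 in turn repress Arntl.

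The values are the authors' log2 signals, 1 per spot and sample, so a difference of 1 is a doubling on this scale. A difference is Graphite minus Ctrl from a linear model of all 24 samples, with dye as a term and the array as a random block, and a gene was called at an adjusted p under 0.05 (limma, Benjamini-Hochberg over 16530 genes). The samples carried the RNA of lung: Scgb1a1, the secretory protein of club cells, was at 17.43 to 17.56 in Graphite and 17.44 to 17.49 in Ctrl, and Sftpd, a surfactant protein, at 15.45 to 16.41 in Graphite and 15.80 to 16.44 in Ctrl. Sftpc, the surfactant protein of alveolar type 2 cells, lay at the highest value of the table, 17.97, in Graphite 13, Graphite 15 and Ctrl 1, so a difference there could not be read. None of the 10 lung identity genes was called (limma, median -0.13, with 2 at an unadjusted p under 0.05).

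Some samples stood apart. The spread of the residuals (SD over genes) was 0.389 in Graphite 13 and 0.430 in Graphite 16, against 0.257 to 0.267 in the other Graphite samples and 0.178 to 0.247 in Ctrl. Graphite 13 shared its array with Ctrl 1, and Graphite 16 shared an array with rCNT 4, whose residuals followed those of Graphite 16 (correlation 0.87). Graphite 13 also held 4868 distinct values over 62976 spots, against 7864 or more in each of the other 23 samples. Heart muscle RNA varied between samples of both groups: Myh6, the heart myosin, was at 10.26, 11.25, 13.72 and 12.05 in Graphite 13 to 16 and at 12.78, 10.37 and 12.54 in Ctrl 1 to 3. Since each sample pools 2 mice, p-values measure the spread between such pools, and so few samples limit the precision, with a standard error of 0.141 for the median gene. In whole lung, fewer cells of a type and less RNA per cell cannot be told apart.

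Graphite changed 187 of 16530 genes (1.13%), 90 upward (0.544%) and 97 downward (0.587%). The genes that rose had a median difference of 0.64 and those that fell of -0.72, beside a median of 0.02 over all genes tested. Few changes were large: 8 genes rose and 14 fell by a factor of 2 or more, and 127 of the 187 (0.768% of the genes tested) changed by 1.5-fold or more. Serum amyloid A (Saa3) and the monocyte chemokines Ccl8 and Ccl2 rose most. Nxph3, Hipk2 and Aldh2 fell most. At an unadjusted p under 0.05 there were 3395 genes (20.5%). The 4 Graphite values lay wholly above or wholly below the 3 Ctrl values for 182 of the 187 called genes, and for 13.9% of all genes tested (9.4% above, 4.54% below). Among 16650 tested spots that carry no gene name, 11 (0.0661%) were called. Among 16650 tested spots that carry no gene name, 11 (0.0661%) were called. Among 16650 tested spots that carry no gene name, 11 (0.0661%) were called. Among 16650 tested spots that carry no gene name, 11 (0.0661%) were called.

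**Figure D1:**
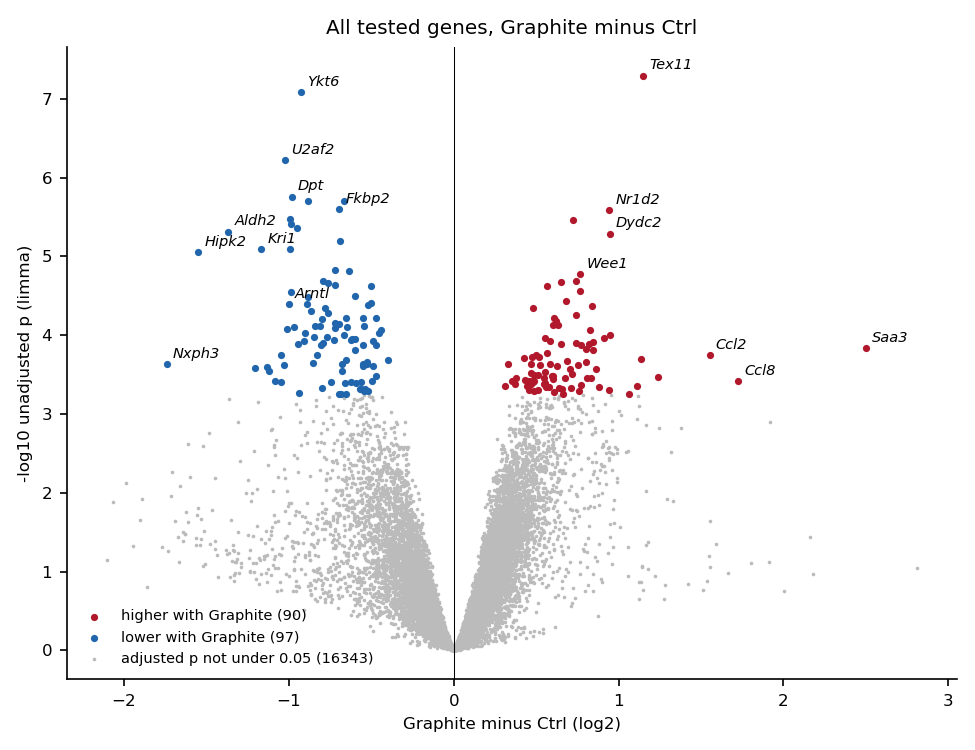
Each point is 1 of the 16530 genes tested. The x axis is the log2 difference, Graphite minus Ctrl, and the y axis is -log10 of the unadjusted limma p. Red points are the 90 genes that rose and blue points the 97 that fell at an adjusted p under 0.05. Saa3 stands farthest to the right and Nxph3 farthest to the left among the called genes, while Tex11 and Ykt6 have the smallest p.

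The number of called genes moved with single samples. It was 3 without Ctrl 1, 24 without Ctrl 2, 35 without Graphite 13, 72 without Graphite 16 and 79 without Ctrl 3, and it was 467 without Graphite 14 and 486 without Graphite 15. Without both samples of the array that holds Graphite 13 and Ctrl 1 there were 0 called genes (limma), with 1514 at an unadjusted p under 0.05. The direction of each of the 187 genes was the same in all 7 of those single-sample fits. Because these genes were chosen on the same samples, a shared direction was largely fixed in advance and is no separate support. Within slide 1 (Graphite 15 and 16 with Ctrl 2) the direction of each was also the same. So it was within slide 2 (Graphite 13 and 14 with Ctrl 1 and 3). Each within-slide fit held all samples on its slide, those of other materials among them. In the fit of slide 2, 52 of the 187 passed (limma, with 2819 of all genes at an unadjusted p under 0.05). That fit had 1 residual degree of freedom. With slide as a term 544 genes were called, 186 of the 187 among them. Some other fits gave few or no calls: there were 0 with the Graphite and Ctrl samples fitted alone (2483 at an unadjusted p under 0.05) and 0 with array as a fixed term (3004), 39 with no array block, and 1 without Graphite 13 and Graphite 16 together.

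**Figure D2:**
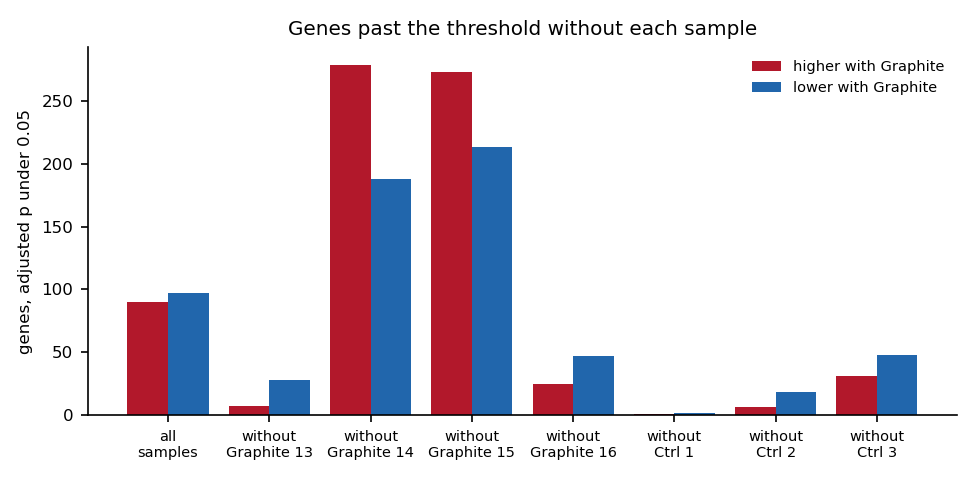
Bars give the number of genes at an adjusted p under 0.05 (y axis) with all samples and without each Graphite or Ctrl sample in turn (x axis). Red bars are genes higher with Graphite and blue bars genes lower. The total falls to 3 without Ctrl 1 and reaches 486 without Graphite 15.

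The largest rise was in inflammation genes. Saa3, an acute phase protein that macrophages and lung epithelium make, was at 10.18, 10.69, 10.73 and 11.48 in Graphite 13 to 16 and at 7.94, 7.99 and 8.30 in Ctrl 1 to 3. Every Graphite sample lay above every Ctrl sample. Its difference was 2.50 ± 0.53 (SE), a 5.65-fold rise (adjusted p = 0.0273). Ccl2, which draws monocytes out of marrow and blood through the receptor CCR2, was at 8.46, 9.15, 8.85 and 8.75 in Graphite and 6.88, 7.48 and 7.53 in Ctrl. These groups did not overlap either, with a difference of 1.55 ± 0.34 and a 2.93-fold rise (adjusted p = 0.0312). Ccl8, a related monocyte chemokine, was at 9.83, 9.23, 9.63 and 9.26 in Graphite and 7.68, 7.64 and 8.21 in Ctrl. It rose by 1.72 ± 0.40, or 3.30-fold (adjusted p = 0.0428). Saa3 differed by 2.74 within slide 1 and 2.57 within slide 2, Ccl2 by 1.47 and 1.95, and Ccl8 by 1.11 and 1.29. All 3 genes lost the call when any 1 of Graphite 13, Graphite 16 and the Ctrl samples was left out, with an adjusted p of up to 0.292 for Saa3, 0.332 for Ccl2 and 0.418 for Ccl8.

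Of the 20 measured chemokines and cytokines that draw neutrophils and monocytes, Ccl2 and Ccl8 rose and none fell. Over all genes tested, 0.544% rose and 0.587% fell, the shares to set beside this and later list counts. The median difference of the list was 0.66, beside 0.02 over all genes, and 18 of the 20 differences were positive. The 4 Graphite values lay above all Ctrl values for 13 of them, beside 9.4% of all genes tested. Ccl12 (1.01, adjusted p = 0.0607), Ccl7 (0.99, adjusted p = 0.0865), Cxcl1 (0.94, adjusted p = 0.0864) and Ccl3 (0.94, adjusted p = 0.0911) were not called. Ccl12, Cxcl1 and Ccl3 passed without Graphite 14, the sample with the smallest mean over the list: that mean, relative to Ctrl, was 0.84, 0.47, 1.11 and 0.49 in Graphite 13 to 16 and -0.06, -0.02 and 0.08 in Ctrl 1 to 3. Among other secreted proteins, Cxcl17, a chemokine of mucosal epithelium, rose by 0.57 ± 0.10 (adjusted p = 0.0142). Ccl1, a ligand of CCR8 on T cells, was called (0.63, adjusted p = 0.0224), but its Ctrl values of 5.11 to 5.25 were dim (the 40th percentile of a sample is 5.69 to 5.75), which leaves its size uncertain. Kng1, the gene of kininogen, from which bradykinin is cut, rose by 0.83 ± 0.17 (adjusted p = 0.0228). Ccl1 kept the call in 2 of 7 single-sample fits (adjusted p of up to 0.292), Kng1 in 3 (up to 0.17) and Cxcl17 in 4 (up to 0.0904).

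Acute phase genes other than Saa3 were not called: of 19 measured, 1 rose and 0 fell, with a median difference of 0.28. Saa1 was at 8.82 to 9.19 in Graphite and 7.50 to 8.11 in Ctrl, a difference of 0.97 (adjusted p = 0.14). Lcn2, an iron-binding protein of neutrophils and epithelium, overlapped between the groups (0.70, adjusted p = 0.152). Ltf, the lactoferrin gene, was at 10.32, 11.17, 11.79 and 11.31 in Graphite and 9.48, 7.45 and 9.73 in Ctrl, and its difference of 1.92 was not called (adjusted p = 0.0653). Ctrl 2 lay far below the other Ctrl samples. Of 29 interferon-induced genes, Ifit3b rose (0.51 ± 0.12, adjusted p = 0.0469) and none fell (median 0.21). Ifit3b kept the call only without Graphite 14, and its adjusted p was up to 0.332 in the other single-sample fits.

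Type 2 inflammation, the response of allergy and worm infection that includes mucus genes, gave no called gene among 29 measured (smallest limma adjusted p = 0.068, and 9 members at an unadjusted p under 0.05). The list median was 0.30. Retnla, a secreted protein of macrophages and epithelium that interleukins 4 and 13 induce, split the Graphite samples. It was at 15.67, 13.38, 15.35 and 15.80 in Graphite 13 to 16 and at 13.92, 13.78 and 13.47 in Ctrl 1 to 3, so Graphite 14 lay below every Ctrl sample and the others above. Its difference was 1.38 (adjusted p = 0.0706), and it passed without Graphite 14. Slc26a4, an anion exchanger of airway epithelium, was at 8.56 to 9.49 in Graphite and 7.49 to 8.08 in Ctrl (1.32, adjusted p = 0.0864). Agr2, needed for mucin folding, was at 8.01 to 8.93 in Graphite and 6.90 to 7.58 in Ctrl (1.16, adjusted p = 0.068). Both were separated from Ctrl but not called.

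The neutrophil, monocyte and natural killer cell lists had medians above that of all genes (0.02), with few calls and an uneven rise between samples. None of 19 neutrophil genes was called (limma, median 0.37, with 6 at an unadjusted p under 0.05), and their mean relative to Ctrl was 1.59 in Graphite 15 and 0.21, 0.09 and 0.33 in Graphite 13, 14 and 16, against -0.04 to 0.03 in Ctrl. S100a8, a defining neutrophil gene, was at 14.80 in Graphite 15 and 11.14 to 12.04 in the other Graphite samples, against 11.37 to 11.73 in Ctrl. None of 15 monocyte and recruited macrophage genes was called (median 0.36, with 2 at an unadjusted p under 0.05), with a list mean of 0.19 to 0.63 in Graphite and -0.11 to 0.06 in Ctrl. Of 15 natural killer and cytotoxic cell genes, Klrb1c, the NK1.1 receptor, rose by 0.84 ± 0.18 (adjusted p = 0.0282). It was at 7.94, 7.33, 8.53 and 7.59 in Graphite and 6.72, 7.03 and 7.13 in Ctrl, and kept the call in 3 of 7 single-sample fits (adjusted p of up to 0.37). All 15 differences of that list were positive (median 0.45). Of the 15, 8 had an unadjusted limma p under 0.05, beside 20.5% of all genes tested. The mean of the list was again highest in Graphite 15 (1.00) and lowest in Graphite 14 (0), against -0.22 to 0.11 in Ctrl. Ikzf1 (Ikaros), a transcription factor of lymphoid cells, rose by 0.74 ± 0.13 (adjusted p = 0.0142), although another spot of the gene differed by -0.30. The part of these cell types in the rise of the chemokines and Saa3 was not tested.

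**Figure D3:**
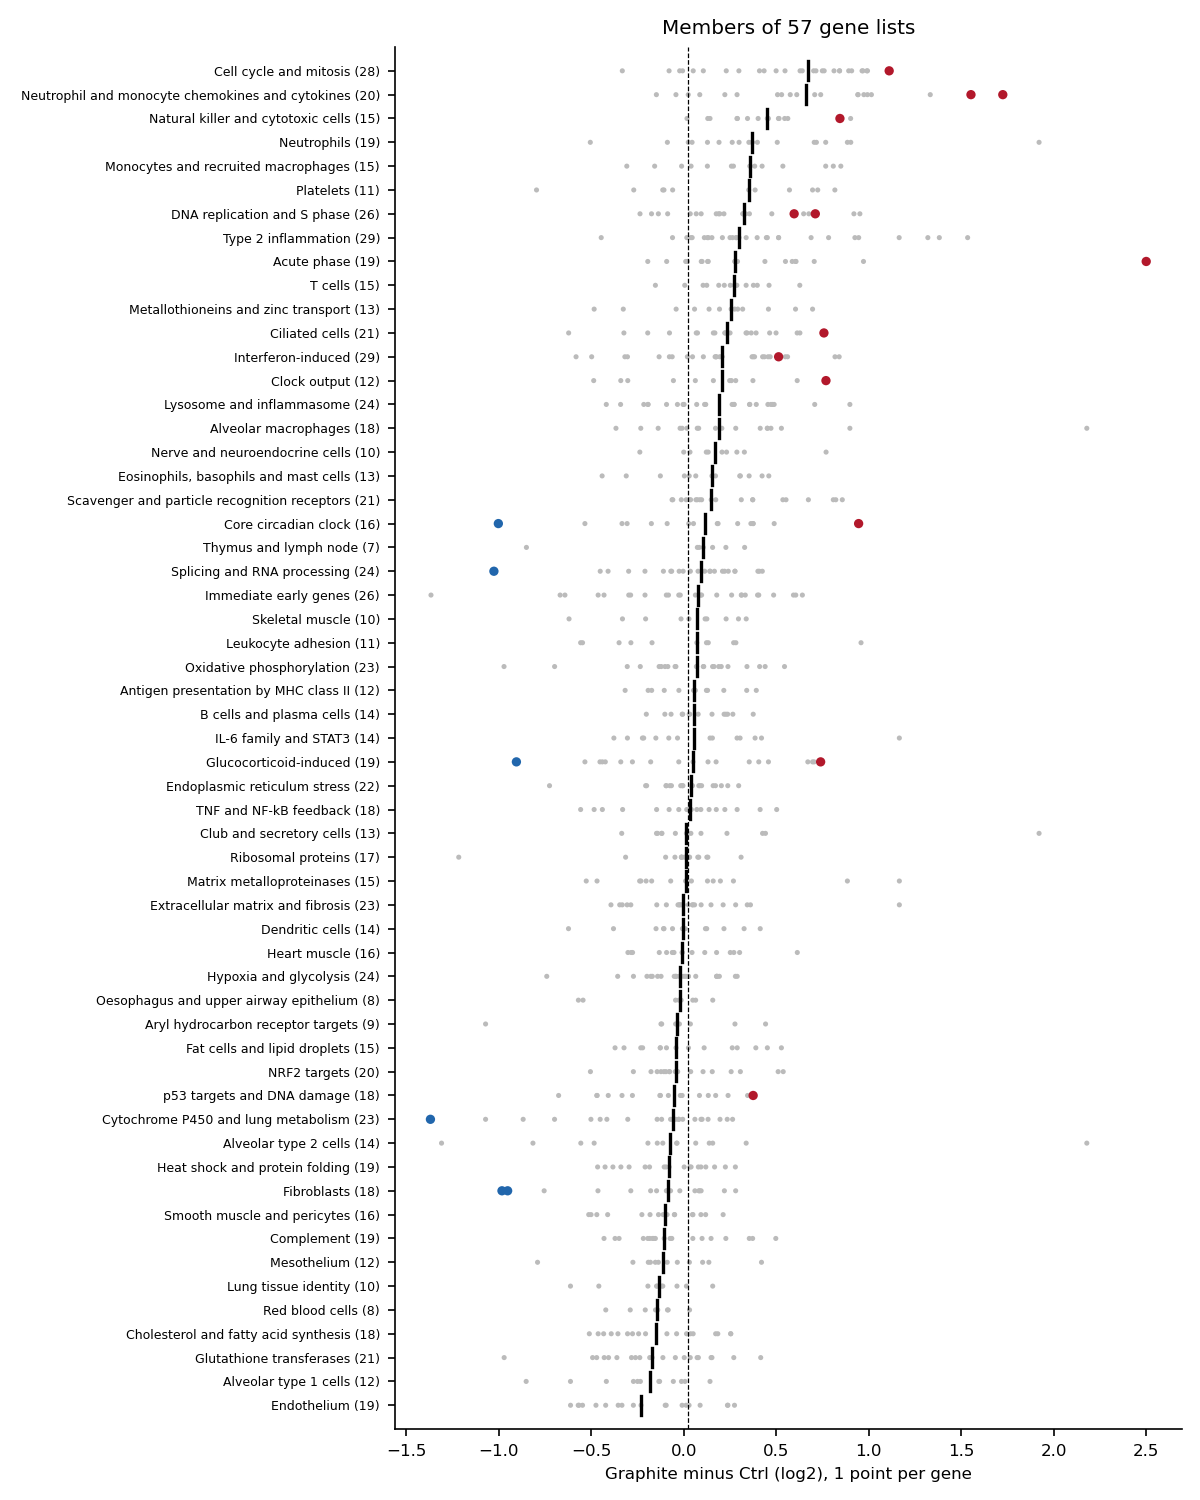
Each point is the log2 difference, Graphite minus Ctrl (x axis), of 1 measured member of the gene or cell marker list named on the y axis, with the number measured in brackets. Red points rose and blue points fell at an adjusted p under 0.05, and grey points were not called. The short vertical bar is the list's median, and the dashed line is the median of all genes tested, 0.02. Lists are ordered by median, from cell cycle and mitosis (0.67) to endothelium (-0.23).

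Several genes of cell division and DNA copying rose. Cenpe, the motor that ties chromosomes to spindle fibres, was at 9.16, 8.64, 8.69 and 8.75 in Graphite 13 to 16 and at 7.41, 7.78 and 8.00 in Ctrl 1 to 3. The groups did not overlap, and the difference was 1.11 ± 0.26, or 2.16-fold (adjusted p = 0.0451). E2f7 and E2f8 encode the atypical E2F factors, which repress S phase genes late in that phase and are themselves E2F targets. E2f7 was at 8.13, 7.70, 7.08 and 7.62 in Graphite and 6.65, 6.64 and 6.97 in Ctrl (0.95 ± 0.20, adjusted p = 0.0247), and E2f8 at 7.92, 7.28, 7.18 and 7.09 in Graphite and 6.29, 6.24 and 6.46 in Ctrl (1.07 ± 0.26, adjusted p = 0.0497). Dtl, the ubiquitin ligase subunit that has the licensing factor Cdt1 destroyed, was at 7.67, 6.90, 6.81 and 7.31 in Graphite and 6.26, 6.14 and 6.35 in Ctrl (0.94 ± 0.23, adjusted p = 0.0469). Graphite 13 was the highest sample for Cenpe, E2f7, E2f8 and Dtl.

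Other members of this machinery rose by less. They were Asf1b, a histone chaperone of replicating DNA (0.88), Bard1, the partner of BRCA1 in repair (0.86), Pole, the catalytic subunit of DNA polymerase epsilon (0.82), Gins1 of the replicative helicase (0.71), Cdt1 (0.60) and Mthfd1l, a mitochondrial enzyme that supplies carbon units for nucleotides (0.72). Their adjusted p lay between 0.0057 for Mthfd1l and 0.0458 for Gins1. Dim further spots of Pole differed by -0.40 and 0.21, so the Pole spots disagreed in direction. Further spots of Bard1 (0.36) and Mthfd1l (0.22) had smaller differences than the spots used, and a dim one of E2f7 differed by 0.04. Wee1, the kinase that holds back mitosis and is also a clock output gene, was at 9.04, 8.83, 8.56 and 8.57 in Graphite and 7.86, 7.97 and 8.40 in Ctrl (0.77 ± 0.14, adjusted p = 0.0132). Mthfd1l lost its call only without Ctrl 1 (adjusted p = 0.118), whereas Cenpe, E2f8, Dtl, Asf1b, Gins1 and Cdt1 lost theirs without any 1 of Graphite 13, Graphite 16 and the Ctrl samples (adjusted p of up to 0.503 for Asf1b). E2f7, Bard1 and Pole kept theirs in 3 of 7 single-sample fits (up to 0.402 for Bard1) and Wee1 in 4 (up to 0.232).

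The gene lists were chosen with earlier results of these data known. On them, 1 of 28 cell cycle and mitosis genes and 2 of 26 DNA replication and S phase genes rose, and none fell. Over all genes tested, 0.544% rose and 0.587% fell. Medians were 0.67 and 0.32, beside 0.02 over all genes. In each list 16 genes had all Graphite values above all Ctrl values, beside 9.4% of all genes tested. At an unadjusted p under 0.05 there were 18 of 28 and 15 of 26, beside 20.5% of all genes. Cdk1, the kinase that starts mitosis, was at 8.09, 7.29, 7.45 and 7.50 in Graphite and 6.49, 6.80 and 6.62 in Ctrl (0.96, adjusted p = 0.0653), and passed without Graphite 14. A dim second Cdk1 spot differed by -0.22. Ccnb2, its cyclin partner, differed by 0.84 (adjusted p = 0.0719). The mean of the cell cycle list relative to Ctrl was 0.85 in Graphite 13, 0.51 in Graphite 14, 0.32 in Graphite 15 and 0.38 in Graphite 16, against -0.16 to 0.13 in Ctrl. Among p53 targets, Pmaip1 (Noxa), a promoter of apoptosis, rose slightly (0.37 ± 0.09, adjusted p = 0.0432), and it was the 1 of 18 called (median -0.05).

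The promoters of E2f7 and Dtl are printed because these genes rose together and the E2F consensus site lies in both. They are the RefSeq promoter windows of assembly GRCm38.p6, 300 bases from 250 before to 50 after the gene start, for E2f7 chr10:110745189-110745488 on the plus strand and for Dtl chr1:191575495-191575794 on the minus strand. Capitals mark a match to TTTNNCGC, searched on both strands, which starts at base 53 in E2f7 (on the opposite strand of the window) and at base 243 in Dtl.
E2f7: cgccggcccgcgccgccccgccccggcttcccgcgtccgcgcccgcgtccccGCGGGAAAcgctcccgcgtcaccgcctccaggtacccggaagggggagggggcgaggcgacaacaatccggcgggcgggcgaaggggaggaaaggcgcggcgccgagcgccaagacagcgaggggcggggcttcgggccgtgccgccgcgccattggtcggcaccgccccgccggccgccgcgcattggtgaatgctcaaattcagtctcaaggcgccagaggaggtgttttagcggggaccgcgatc
Dtl: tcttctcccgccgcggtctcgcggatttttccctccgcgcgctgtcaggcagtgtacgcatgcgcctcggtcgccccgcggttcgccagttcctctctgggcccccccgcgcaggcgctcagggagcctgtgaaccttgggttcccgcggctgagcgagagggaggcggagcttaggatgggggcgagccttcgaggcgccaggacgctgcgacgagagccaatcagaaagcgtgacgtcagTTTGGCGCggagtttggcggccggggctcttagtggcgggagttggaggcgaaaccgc

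These letters are in 5.93% of the promoters of all 27025 genes in the table and 8.43% of the 13089 tested genes that have one there. They are in 7.69% of the promoters of genes that rose (5 of 65) and 10.8% of those of genes that fell (8 of 74). The share among the genes that rose is thus near the background. The other cell cycle motif searched, TTTGAA (the CHR element), was in 23.1% of the promoters of genes that rose (15 of 65), 9.46% of those of genes that fell (7 of 74) and 15.3% of those of all genes tested. A match is a description of the letters and not of binding.

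**Figure D4:**
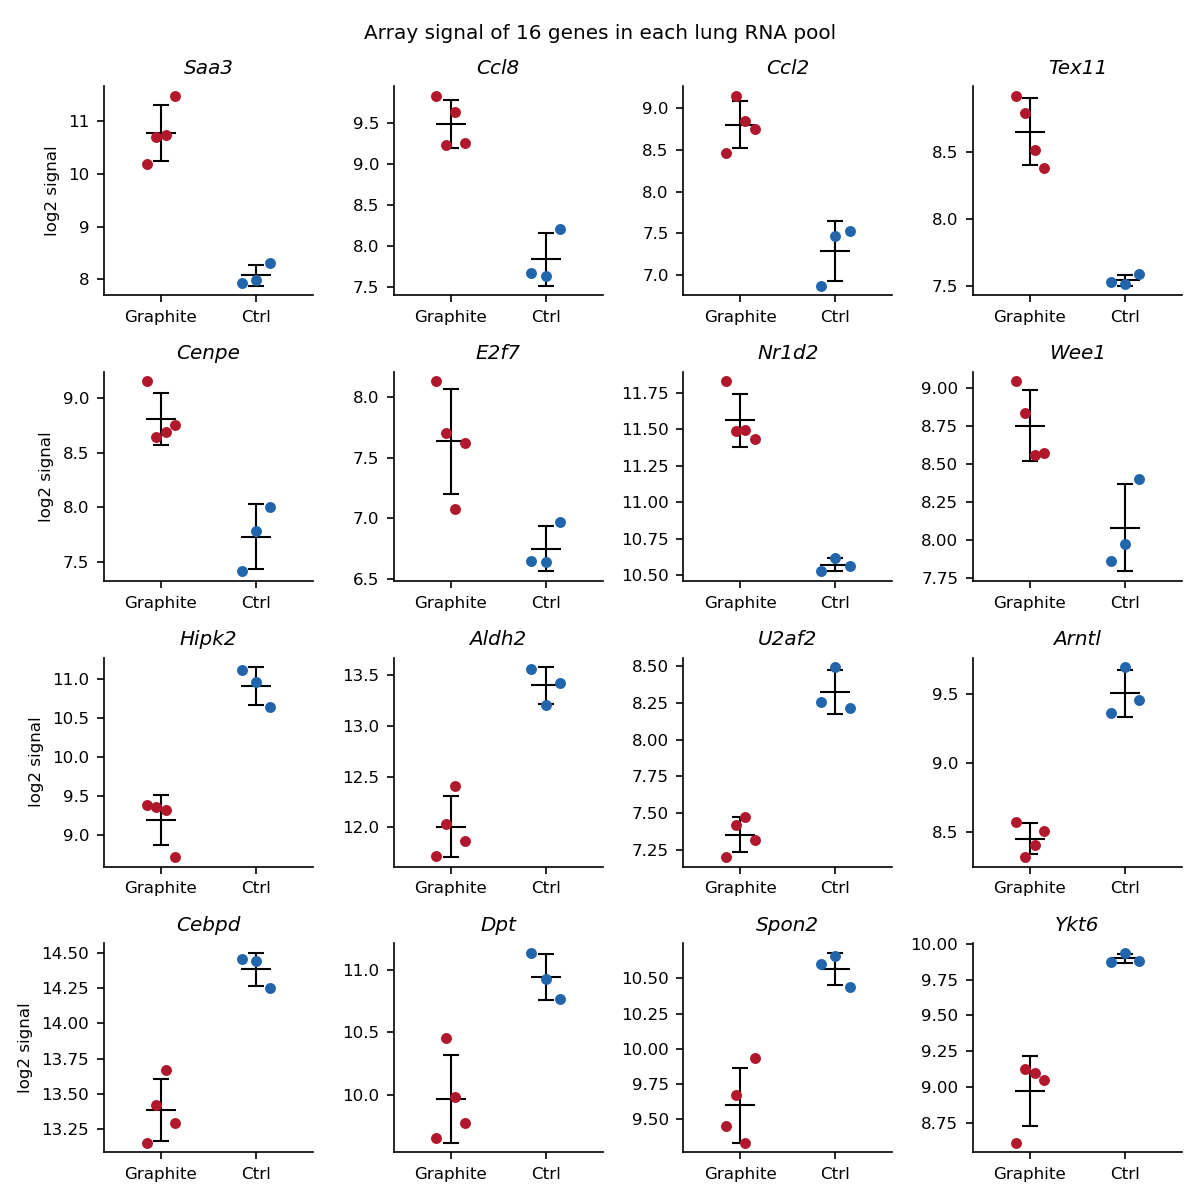
Points are the log2 signals (y axis) of 16 genes in the 4 Graphite (red) and the 3 Ctrl (blue) samples, in sample order from left to right, with the mean and SD of each group. The y axes differ between panels and do not start at 0. In each panel the Graphite samples lie wholly above (Saa3 to Wee1) or wholly below (Hipk2 to Ykt6) the Ctrl samples.

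Clock genes changed in opposite directions. Nr1d2 (REV-ERB beta), which represses Arntl, was at 11.83, 11.49, 11.50 and 11.43 in Graphite 13 to 16 and at 10.53, 10.62 and 10.56 in Ctrl 1 to 3. It rose by 0.94 ± 0.14, or 1.92-fold (adjusted p = 0.00536), and a second spot of the gene differed by 0.72. Arntl, the core activator of the clock, was at 8.57, 8.32, 8.40 and 8.51 in Graphite and 9.36, 9.70 and 9.46 in Ctrl. It fell by 1.00 ± 0.19, to 0.499 of the Ctrl level (adjusted p = 0.0184). Both pairs of groups were far apart relative to their spread. Nr1d2 differed by 0.94 within slide 1 and 0.95 within slide 2, and Arntl by -1.30 and -1.09. Nr1d2 lost the call only without Ctrl 1 (adjusted p = 0.118), and Arntl without Graphite 13, Ctrl 1 or Ctrl 2 (adjusted p of up to 0.128).

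Other clock genes were not called. Of 16 core clock genes measured, 1 rose and 1 fell (median 0.12), and 8 had an unadjusted limma p under 0.05, beside 20.5% of all genes tested. Clock, the partner of Arntl, differed by 0.03 ± 0.17 (adjusted p = 0.945). Per1 was at 12.64, 12.73, 12.99 and 12.95 in Graphite and 13.27, 13.39 and 13.01 in Ctrl (-0.53, adjusted p = 0.0653, with a dim second spot at 0.09), and Per2 overlapped (0.38, adjusted p = 0.295). Among 12 clock output genes Wee1 alone was called (median 0.20, with 5 at an unadjusted p under 0.05). Dbp, a direct target of Arntl and Clock, was at 14.15 to 14.77 in Graphite and 13.58 to 13.98 in Ctrl (0.61, adjusted p = 0.1), and Nfil3, which acts against Dbp, differed by -0.49 (adjusted p = 0.15). Clock genes cycle through the day, and the hour of dissection was not compared between the groups, since the sources used here do not give it.

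The promoters of Arntl and Nr1d2 are shown because REV-ERB and ROR factors bind the half-site AGGTCA, and these genes moved in opposite directions. The windows are again RefSeq GRCm38.p6, chr7:113207261-113207560 on the plus strand for Arntl (the second of 2 windows the table gives, the first having no match) and chr14:18239057-18239356 on the minus strand for Nr1d2. Capitals mark the half-site, searched on both strands, which starts at base 282 in Arntl and base 174 in Nr1d2.
Arntl: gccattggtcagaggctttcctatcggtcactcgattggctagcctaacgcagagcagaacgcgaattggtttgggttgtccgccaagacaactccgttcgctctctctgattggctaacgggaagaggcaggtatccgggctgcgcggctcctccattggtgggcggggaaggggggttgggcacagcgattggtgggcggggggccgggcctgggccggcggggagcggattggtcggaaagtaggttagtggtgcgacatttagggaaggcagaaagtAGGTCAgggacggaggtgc
Nr1d2: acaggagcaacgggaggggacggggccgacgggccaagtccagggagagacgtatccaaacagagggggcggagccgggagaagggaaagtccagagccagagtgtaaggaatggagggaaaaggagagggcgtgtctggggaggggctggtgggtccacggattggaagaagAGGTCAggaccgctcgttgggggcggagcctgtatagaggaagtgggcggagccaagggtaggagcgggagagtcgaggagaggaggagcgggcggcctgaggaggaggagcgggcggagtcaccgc

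The half-site is short and common. It is in 18.1% of all promoters in the table and 15.8% of those of genes tested, against 16.9% for genes that rose (11 of 65) and 12.2% for genes that fell (9 of 74). The E-box CACGTG, which Arntl and Clock bind, was in 13.8% of promoters of genes that rose, 12.2% of those of genes that fell and 10.4% of those of genes tested.

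Glucocorticoid-induced genes went both ways. Fkbp5, a chaperone partner that dampens the receptor and is a standard marker of its activity, was at 10.37, 10.76, 10.64 and 10.45 in Graphite and 9.90, 9.90 and 9.49 in Ctrl, and rose by 0.74 ± 0.14 (adjusted p = 0.0212). Ddit4 (REDD1), a stress-induced inhibitor of mTORC1, was at 12.12, 11.31, 11.48 and 11.71 in Graphite and 12.90, 12.87 and 12.27 in Ctrl, and fell by 0.90 ± 0.18 (adjusted p = 0.0242). These were 1 higher and 1 lower of 19 measured (median 0.05), and 12 had an unadjusted limma p under 0.05, beside 20.5% of all genes tested. Zbtb16 (0.67, adjusted p = 0.187), Tsc22d3 (-0.34, adjusted p = 0.263) and Klf9 (-0.45, adjusted p = 0.0923), further targets of the receptor, were not called. Cebpd, a transcription factor that inflammation and glucocorticoids induce, was at 13.15, 13.42, 13.67 and 13.29 in Graphite and 14.45, 14.44 and 14.25 in Ctrl. It fell by 1.01 ± 0.20 (adjusted p = 0.0228). Jun, an immediate early gene, was at 13.69, 13.20, 13.64 and 12.33 in Graphite and 14.88, 14.91 and 14.64 in Ctrl, and its difference of -1.37 was not called (adjusted p = 0.0511). Fkbp5 lost its call without Ctrl 1 or Ctrl 3 (adjusted p of up to 0.118), Ddit4 without Graphite 16, Ctrl 1 or Ctrl 2 (up to 0.332) and Cebpd without Graphite 13, Ctrl 1 or Ctrl 2 (up to 0.292).

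Tex11, an X-linked gene of meiosis in testis, had the smallest p of the genes that rose. It was at 8.92, 8.79, 8.52 and 8.38 in Graphite and 7.53, 7.51 and 7.59 in Ctrl, 2.22-fold higher (1.15 ± 0.13, adjusted p = 0.000686), and it passed without any single sample (adjusted p of up to 0.0291). A dim second spot of Tex11 differed by 0.27. Meig1, needed to shape sperm, rose by 0.80 ± 0.17 (adjusted p = 0.0275), and Dydc2 by 0.95 ± 0.15 (adjusted p = 0.00605), with further spots at 0.59 for Meig1 and 0.20 for Dydc2. Ccno, which starts the centriole amplification of multiciliated cells, was at 10.26, 10.33, 9.96 and 10.62 in Graphite and 9.44, 9.57 and 9.46 in Ctrl (0.76 ± 0.18, adjusted p = 0.0476). It was the 1 called gene among 21 ciliated cell genes (median 0.23). Of the 21, 17 differences were positive, and 12 had an unadjusted limma p under 0.05, beside 20.5% of all genes tested. All Graphite values lay above all Ctrl values for 7 of them (9.4% of all genes) and below for 1 (4.54%). Dnah5 (0.50) and Ccdc39 (0.63) were positive but not called. Foxj1, the master factor of motile cilia, lay lower in all Graphite samples (9.40 to 9.93) than in all Ctrl samples (10.11 to 10.56), with a difference of -0.62 that was not called (adjusted p = 0.0719). Ccno kept the call in 1 of 7 single-sample fits (adjusted p of up to 0.376), and Meig1 in 2 (up to 0.351).

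Signalling genes that rose included Prkca, the kinase PKC alpha (0.65 ± 0.14, adjusted p = 0.0252), and Dock9, which activates the small GTPase Cdc42 (0.65 ± 0.12, adjusted p = 0.0142). Myrip, which links Rab27 to myosin on secretory granules, rose by 0.84 ± 0.16 (adjusted p = 0.0186). N6amt1, a methyltransferase of the translation release factor, was at 8.51, 8.04, 7.39 and 7.81 in Graphite and 6.85, 6.34 and 7.36 in Ctrl, so the groups all but met (1.24 ± 0.29, adjusted p = 0.0413), and another spot of it differed by -0.09. Phgr1 rose by 1.14 ± 0.25 (adjusted p = 0.0328), with Ctrl 2 at 6.24 well below the other Ctrl samples (7.77 and 7.78). Prkca, Myrip and N6amt1 kept the call in 3 of 7 single-sample fits (adjusted p of up to 0.292, 0.125 and 0.439). Phgr1 kept it in 4 (up to 0.193) and Dock9 in 5 (up to 0.332).

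Nxph3, Hipk2 and Aldh2 had the largest falls. Hipk2, a nuclear kinase that can activate p53, was at 9.38, 9.36, 9.32 and 8.71 in Graphite 13 to 16 and at 11.11, 10.96 and 10.64 in Ctrl 1 to 3. It fell to 0.341 of the Ctrl level (-1.55 ± 0.26, adjusted p = 0.00806), but another Hipk2 spot, with a mean level of 8.12, differed by only -0.13. Aldh2, the mitochondrial enzyme that clears acetaldehyde and lipid aldehydes, was at 11.71, 12.04, 12.41 and 11.86 in Graphite and 13.57, 13.21 and 13.43 in Ctrl. It fell to 0.387 of the Ctrl level (-1.37 ± 0.22, adjusted p = 0.00605) and was the 1 of 23 P450 and metabolism genes called (median -0.06). Nxph3, a secreted ligand of neurexins, was at 9.88, 8.75, 8.73 and 7.49 in Graphite and 11.09, 10.87 and 10.13 in Ctrl (-1.74 ± 0.39, adjusted p = 0.0344). Graphite 16 was the lowest sample for Hipk2 and Nxph3, and without it Nxph3 was no longer called, nor without any Ctrl sample (adjusted p of up to 0.332). Aldh2 lost the call only without Ctrl 1 (adjusted p = 0.125).

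Ykt6, a SNARE protein of Golgi and autophagosome fusion, was at 8.61, 9.13, 9.10 and 9.05 in Graphite and 9.87, 9.94 and 9.88 in Ctrl. It fell by 0.93 ± 0.11 (adjusted p = 0.000686). U2af2, the splicing factor that binds the tract before the 3′ splice site, was at 7.20, 7.42, 7.48 and 7.32 in Graphite and 8.26, 8.49 and 8.22 in Ctrl, and fell by 1.03 ± 0.14 (adjusted p = 0.00328), with another spot at -0.57. Neither lost the call without any single sample (adjusted p of up to 0.0291 for Ykt6 and 0.0396 for U2af2). U2af2 was the 1 of 24 splicing genes called (median 0.10). Kri1, a ribosome assembly factor, was at 10.68, 10.21, 10.78 and 10.49 in Graphite and 11.75, 11.80 and 11.96 in Ctrl (-1.17 ± 0.20, adjusted p = 0.0079). Both the ribosomal protein list (0 of 17 called, median 0.01, 2 at an unadjusted p under 0.05, limma) and the oxidative phosphorylation list (0 of 23, median 0.07, 4 at an unadjusted p under 0.05) stayed near the median of all genes.

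The promoter of Ykt6, the gene with the smallest p among those that fell, is shown for the GC box GGGCGG, the Sp1 site (RefSeq GRCm38.p6, chr11:5955508-5955807, plus strand). The match, in capitals, starts at base 155 of the window. The GC box, searched on both strands, was in 74.3% of the promoters of genes that fell (55 of 74), 55.4% of those of genes that rose (36 of 65) and 60.3% of those of genes tested.
Ykt6: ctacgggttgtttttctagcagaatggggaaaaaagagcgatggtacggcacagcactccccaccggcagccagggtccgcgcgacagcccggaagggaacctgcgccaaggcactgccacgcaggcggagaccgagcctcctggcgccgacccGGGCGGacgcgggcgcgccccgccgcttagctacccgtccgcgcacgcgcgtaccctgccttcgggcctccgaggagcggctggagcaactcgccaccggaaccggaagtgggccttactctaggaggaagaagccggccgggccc

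Further genes fell by about a factor of 2 or less. In Wnt signalling, the co-receptor Lrp6 (-1.05 ± 0.23, adjusted p = 0.0312) and the scaffold Axin1 of the complex that destroys beta-catenin (-0.99 ± 0.15, adjusted p = 0.0057) both fell. In lipid synthesis, Lpin2, a phosphatidate phosphatase (-1.21), and Pcyt1a, the rate-limiting enzyme of phosphatidylcholine synthesis (-1.05), fell. In organelles, Pex10 of peroxisome import (-0.88), Fkbp2, a prolyl isomerase of the endoplasmic reticulum (-0.69), Slc39a7, a zinc transporter of the same compartment (-0.69), and Borcs6, which positions lysosomes (-0.99), fell. Others were Telo2, a chaperone partner of large kinases (-0.66), Pfdn2 of the prefoldin chaperone (-0.63), Kmt5c, a histone methyltransferase (-0.99), Bcam, a laminin receptor (-0.91), Gucy1a2, a subunit of the nitric oxide receptor (-1.13), and G2e3, a ubiquitin ligase (-1.12). Spots of G2e3 disagreed in direction: besides the one used, the brightest differed by -0.68 and the others by 0.25 each. Another spot of Erc1 (-0.98), a scaffold of exocytosis sites, differed by 0.15, one of Gucy1a2 by -0.32 and one of Lrp6 by -1.41. Pcyt1a kept its call in 1 of 7 single-sample fits (limma, adjusted p of up to 0.351) and Lpin2 in 2 (up to 0.358). Lrp6, Bcam, Gucy1a2 and G2e3 kept theirs in 3 (up to 0.418 for Gucy1a2). The other genes named in this paragraph kept theirs in 4 to 6. Over all called genes with further spots, 100 of 118 such spots (84.7%) had the direction of the spot used.

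Among fibroblast genes, 2 of 18 fell and none rose (median -0.08), while 0.587% of all genes tested fell. Dpt (dermatopontin), a matrix protein of fibroblasts, was at 9.66, 10.46, 9.98 and 9.77 in Graphite and 11.14, 10.93 and 10.77 in Ctrl. It fell by 0.98 ± 0.15 (adjusted p = 0.00536), and its 9 other spots differed by -0.80 to -1.13. Spon2 (spondin 2), a secreted matrix protein, was at 9.45, 9.67, 9.33 and 9.94 in Graphite and 10.60, 10.66 and 10.44 in Ctrl (-0.95 ± 0.15, adjusted p = 0.00605). Dpt differed by -1.12 within slide 1 and -0.50 within slide 2. Pdgfra, a defining fibroblast gene, overlapped (-0.18, adjusted p = 0.56), and Col13a1, a collagen of lung fibroblasts, was not called (-0.75, adjusted p = 0.051). The mean of the list relative to Ctrl was -0.32 to -0.06 in Graphite and -0.03 to 0.05 in Ctrl. The part of fibroblast number in the fall of Dpt and Spon2 was not tested. Dpt lost its call without Ctrl 1, and Spon2 without Ctrl 1 or Ctrl 2 (adjusted p of up to 0.118).

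No gene was called in the lists of NRF2 targets (20 measured, median -0.04, 2 at an unadjusted p under 0.05, limma), aryl hydrocarbon receptor targets (9, median -0.04, 1), heat shock (19, median -0.08, 5) and endoplasmic reticulum stress (22, median 0.04, 2). Hmox1, the heme oxygenase that oxidative stress induces, was at 10.83 to 11.09 in Graphite and 10.37 to 10.79 in Ctrl (0.26, adjusted p = 0.331). Cyp1a1, the sentinel gene of the aryl hydrocarbon receptor, was at 6.82 to 8.16 in Graphite, and Ctrl 1 stood out at 11.31 beside 7.75 and 7.56 in Ctrl 2 and 3. Endothelial (0 of 19, median -0.23, 6 at an unadjusted p under 0.05) and alveolar type 1 cell genes (0 of 12, median -0.18, 4) had the lowest medians. Cldn5, the endothelial tight junction protein, was at 14.16 to 14.81 in Graphite and 14.71 to 15.33 in Ctrl (-0.61, adjusted p = 0.109). Ager, the type 1 cell receptor, was at 13.22 in Graphite 13 and 14.21 to 14.36 in the other Graphite samples, against 14.47 to 14.54 in Ctrl (-0.61, adjusted p = 0.114).

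Graphite differed from the mean of the other 5 materials in 205 of 16530 genes (1.24%), 119 higher (0.72%) and 86 lower (0.52%). Chaperone, traffic and kinase genes were among them. Prkca was higher by 0.71 ± 0.10 (adjusted p = 0.00708), Pfdn2 lower by 0.60 (-0.60 ± 0.08, adjusted p = 0.00708), Fkbp2 lower (-0.54 ± 0.08, adjusted p = 0.00708) and Ykt6 lower (-0.54 ± 0.08, adjusted p = 0.00983). In this contrast, these 4 kept the call without any single Graphite sample. Nr1d2 (0.47), Tex11 (0.55), Dock9 (0.54), Hipk2 (-0.84), Dpt (-0.54) and U2af2 (-0.43) were also called. Of the 4 fits without 1 Graphite sample, Dock9 kept the call in 3, Tex11 and Dpt in 2, and Nr1d2, Hipk2 and U2af2 in 1. In all, 40 of the 187 genes changed against Ctrl were called here, 11 higher and 29 lower. This contrast uses no Ctrl sample but the same Graphite samples.

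Genes of mucus and chemokine responses were lower in Graphite than in the other materials, and these differences moved with rCNT. Slc26a4 (-1.28 ± 0.29), Retnla (-1.19 ± 0.28), Cxcl5 (-1.11 ± 0.23) and Agr2 (-1.10 ± 0.23) were lower, with adjusted p of 0.0326 to 0.0379. Of the 4 fits without 1 Graphite sample, Retnla kept the call in 2, Cxcl5 and Agr2 in 1 and Slc26a4 in 0. Slc26a4 averaged 9.09 in Graphite, 13.58 in rCNT, 10.29 in tCNT, 9.04 in SES, 10.24 in BayTubes and 9.24 in fullerene, so Graphite was in the lower part of a range that rCNT stretched. With rCNT left out of the mean, a choice made after seeing the data, the difference of Slc26a4 was -0.54 (adjusted p = 0.462). Retnla was then at -0.83 (adjusted p = 0.275) and Agr2 at -0.49 (adjusted p = 0.406), and 0 genes were called (limma), with 2185 at an unadjusted p under 0.05. Prkca, Pfdn2 and Ykt6 were then at 0.60, -0.47 and -0.45, each with an adjusted p of 0.12. The count of 205 was 18, 46, 406 and 19 without Graphite 13, 14, 15 and 16 in turn.

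Other materials were compared with the same 3 Ctrl samples, so what they show against Ctrl is given beside Graphite and not as independent. Saa3 differed from Ctrl by 2.50 after Graphite, 5.90 after rCNT, 2.19 after tCNT, 1.06 after SES, 3.13 after BayTubes and 1.46 after fullerene. Ykt6 differed by -0.93 after Graphite, -0.02 after rCNT, -0.19 after tCNT, -0.76 after SES, -0.58 after BayTubes and -0.38 after fullerene. Kri1 differed by -1.17 after Graphite, -0.01 after rCNT, -0.26 after tCNT, -1.23 after SES, -1.08 after BayTubes and -0.70 after fullerene. The order of the materials thus differed from gene to gene, with rCNT far above Graphite for Saa3 and near Ctrl for Ykt6 and Kri1.

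Against fullerene, carbon in closed cages, 5 of 16530 genes (0.0302%) differed, 2 higher (0.0121%) and 3 lower (0.0181%), with 1302 at an unadjusted p under 0.05 (limma), and 3 of the 5 were clock genes. Arntl was at 8.32 to 8.57 in Graphite and 7.20 to 7.75 in fullerene, higher by 1.15 ± 0.17 (adjusted p = 0.0171). Per2 was at 8.33 to 9.43 in Graphite and 9.64 to 10.36 in fullerene, lower by 1.15 (-1.15 ± 0.18, adjusted p = 0.0171), and Per1 was at 12.64 to 12.99 in Graphite and 13.48 to 13.72 in fullerene (-0.83 ± 0.13, adjusted p = 0.0171). None of these groups overlapped. Spon2 was higher by 1.01 ± 0.14 (adjusted p = 0.00882) and Pfdn2 lower (-0.58 ± 0.10, adjusted p = 0.0495). Of the 8 fits without 1 Graphite or fullerene sample, Spon2 kept the call in 7, Per1 in 4, Arntl and Per2 in 3 and Pfdn2 in 0. Arntl averaged 8.45 in Graphite, between 7.44 in fullerene and 9.51 in Ctrl. The count was 2 without Graphite 15, Graphite 16, fullerene 22 or fullerene 23, and 0 without fullerene 24, with 837 at an unadjusted p under 0.05, where the adjusted p of Spon2 was 0.0628.

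Against BayTubes, a carbon nanotube, 5 genes (0.0302%) differed, 3 higher (0.0181%) and 2 lower (0.0121%), with 2290 at an unadjusted p under 0.05 (limma). Arntl was at 8.32 to 8.57 in Graphite and 6.99 to 7.65 in BayTubes, higher by 1.19 ± 0.18 (adjusted p = 0.0401). Spon2 averaged 9.60 ± 0.27 in Graphite and 8.74 ± 0.20 in BayTubes (SD, n = 4 samples each), a difference of 0.85 ± 0.15 (SE, adjusted p = 0.0447). Foxn4, a factor that acts in forming multiciliated cells in frog epidermis, was at 8.29 to 8.81 in Graphite and 9.33 to 9.81 in BayTubes (-1.03 ± 0.17, adjusted p = 0.0401). Erc1 was lower (-0.87 ± 0.15, adjusted p = 0.0447) and Tfcp2l1, a transcription factor of epithelia, higher (0.54 ± 0.09, adjusted p = 0.0401). Of the 8 fits without 1 Graphite or BayTubes sample, Arntl kept the call in 3, and Spon2, Foxn4, Erc1 and Tfcp2l1 in 2. Saa3 (-0.63 ± 0.52, adjusted p = 0.613) and Ccl2 (-0.52 ± 0.33, adjusted p = 0.485) were not called between Graphite and BayTubes, with 95% intervals of -1.71 to 0.45 for Saa3 and -1.20 to 0.16 for Ccl2, with 95% intervals of -1.71 to 0.45 for Saa3 and -1.20 to 0.16 for Ccl2, with 95% intervals of -1.71 to 0.45 for Saa3 and -1.20 to 0.16 for Ccl2, with 95% intervals of -1.71 to 0.45 for Saa3 and -1.20 to 0.16 for Ccl2, with 95% intervals of -1.71 to 0.45 for Saa3 and -1.20 to 0.16 for Ccl2, with 95% intervals of -1.71 to 0.45 for Saa3 and -1.20 to 0.16 for Ccl2, which does not show that they were alike. The count was 0 without Graphite 13, BayTubes 17, BayTubes 18 or BayTubes 19 (1772 to 2146 at an unadjusted p under 0.05), 2 without Graphite 16 or BayTubes 20, 9 without Graphite 14 and 26 without Graphite 15.

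**Figure D5:**
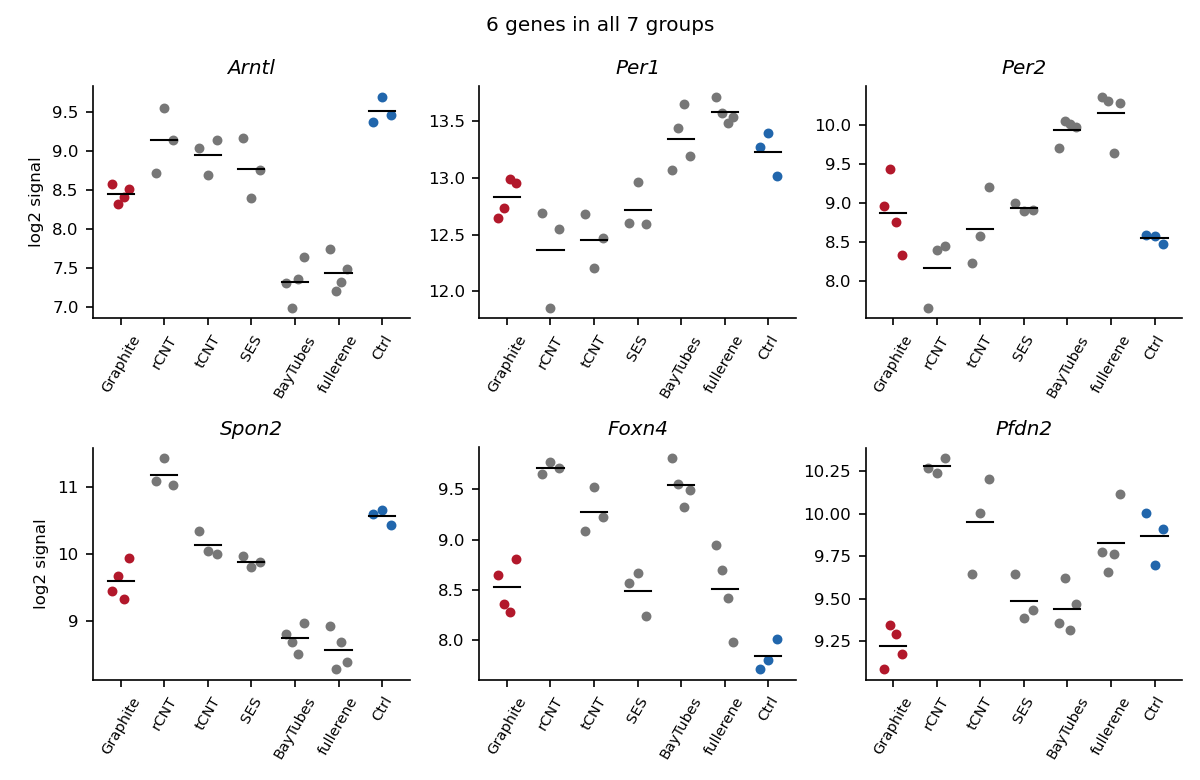
Points are the log2 signals (y axis) of 6 genes in the samples of all 7 groups (x axis), with Graphite in red, Ctrl in blue and the other materials in grey, and a bar at each group mean. The y axes differ and do not start at 0. Arntl and Spon2 in Graphite lie between their levels in fullerene or BayTubes and in Ctrl, and Pfdn2 has its lowest mean, 9.23, in Graphite.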

How the data were processed

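Lung RNA was labelled with Cy3 or Cy5 and hybridised in pairs to 12 Agilent 2-colour arrays on 3 slides. The authors' deposited table holds log2 signals, 1 per spot and sample, from 4.71 to 17.97. Per the submitters' processing notes they used Agilent Feature Extraction and limma, with no version given. The sorted values of any 2 samples differ by at most 0.086, so the table was already normalized between samples and was used without further scaling. The scanner output was not used here, so background flags are not known.

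Of 62976 spots, 31465 carried a gene name in the platform annotation, none of them several names, and 31511 none. Names were updated through RefSeq GRCm38.p6 (29050 by accession, 2061 by symbol, 349 by synonym, 5 kept as given). Each gene was represented by its brightest spot. A gene was tested where 3 or more samples lay above their 40th percentile, which left 16530 genes. limma 3.58.1 (R 4.3.3) fitted all 24 samples with group and dye as terms and the array as a random block (duplicateCorrelation, 0.399). Benjamini-Hochberg adjusted p under 0.05, two-sided, made a call. The fit was tested on simulated data with normal noise, where the spread of a gene was the same in every sample. The real samples had residual SDs of 0.16 to 0.495, so that test does not bear on how the counts moved with single samples. The array pairs samples of different groups, and slide 3 held 0 Graphite or Ctrl samples.

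Members and the 57 gene lists (32 pathways, 25 cell types) were chosen with earlier results of these data known. Genes named are the 25 highest and 25 lowest called, the 15 with the smallest p in each direction, list members, and the 10 highest and lowest of each other contrast. Promoter motifs were searched on both strands. Each sample was left out in turn, and normalization, filter, block, slide, weights and spot choice were varied.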

Additional observations from a re-analysis of the deposited data

Results flagged for a closer look

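Among 112 genes and 57 list means tested in the 4 Graphite samples, 5 genes and 2 lists had 1 sample far from the others (gap over range past Dixon's 95% limit for 4 samples). Chance gives this in about 1 in 20 groups. Graphite 13 was the distant sample in 5 of the 7. It was the highest for Nr1d2 (11.83, next 11.50, gap over range 0.84) and Cxcl5 (7.06, next 5.99, 0.944). It was the lowest for Ykt6 (8.61, next 9.05, 0.855), Ager (13.22, next 14.21, 0.866) and the mean of the club and secretory cell list (-0.60, next 0.48, 0.837). Graphite 16 was the lowest for Hipk2 (8.71, next 9.32, 0.908). Graphite 15 was the highest for the neutrophil list (1.59, next 0.33, 0.84).

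Graphite and another material differed from each other in the same genes reported above. Against fullerene these were Arntl (1.15), Spon2 (1.01), Per1 (-0.83), Per2 (-1.15) and Pfdn2 (-0.58), each by a limma test of the difference itself. Against BayTubes they were Arntl (1.19), Spon2 (0.85), Tfcp2l1 (0.54), Erc1 (-0.87) and Foxn4 (-1.03). Another spot of Tfcp2l1 differed by -0.54 between Graphite and Ctrl, beside 0.02 for the spot used.

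Spots without a gene name were fitted apart from the named genes. Of 16650 tested, 11 (0.0661%) were called between Graphite and Ctrl, 5 higher and 6 lower, with differences from -1.69 to 1.95 and a smallest adjusted p of 0.00372 (limma). What these spots measure was not established here.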

How the results depend on the processing

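The 187 genes changed between Graphite and Ctrl kept their direction under every alternative run that measured them (the stricter filter left 175), except that 186 did (99.5%) with the mean of a gene's spots. These genes were chosen on the same samples, so a shared direction was largely fixed in advance. The number of called genes was less stable, and the cause was not tested. It was 39 with no array block, 544 with slide as a term, 978 with a weight per sample, 770 at an adjusted p under 0.1, 96 without the array of rCNT 4 and Graphite 16, 6 within slide 1, 501 within slide 2, 83 within the Cy5 samples, 1 without Graphite 13 and 16 together, and 29 when those were left out with slide as a term (chosen after seeing the data). It was 0 (limma) with array as a fixed term (3004 at an unadjusted p under 0.05), without the array of Ctrl 1 and Graphite 13 (1514), with Graphite and Ctrl fitted alone (2483) and within the Cy3 samples (1993). These counts do not all hold the same genes. Of the 501 genes called within slide 2, 52 were among the 187. Genes called within slide 1 or within the Cy5 samples, each with a single Ctrl sample, lay almost wholly outside the 187. Leaving out 1 sample gave a count of 3 to 486. It was within 1.5 times of 187 with no dye term (146), no dim filter (146), a stricter filter (253), renormalization (187), median centring (201, 84 higher and 117 lower) and other variance priors (162 and 171). Against the mean of the other 5 materials, the 205 genes became 131 with no dye term, 84 with slide as a term, 1080 with weights, 677 at an adjusted p under 0.1, 33 at 1.5-fold or more, and 18 to 406 without 1 Graphite sample. They became 0 (limma) with array fixed (1327 at an unadjusted p under 0.05), without the array of Ctrl 1 and Graphite 13 (2856), without Graphite 13 and 16 (2122) and without rCNT in the mean (2185, chosen after seeing the data). Against fullerene, 5 became 3 with no dye term or with spot means, 1 with no array block or without the array of Ctrl 1 and Graphite 13, 554 with weights, 12 at an adjusted p under 0.1, 0 to 7 without 1 sample, and 0 (limma) with array fixed (563 at an unadjusted p under 0.05) or without Graphite 13 and 16 (1496). Against BayTubes, 5 became 14 with no array block, 32 with slide as a term, 19 with the stricter filter, 12 with median centring, 1 with spot means, 3 with a trended prior or without the array of rCNT 4 and Graphite 16, 8 with a robust prior, 759 with weights, 2 without Graphite 13 and 16, 24 at an adjusted p under 0.1, 0 to 26 without 1 sample, and 0 (limma) with array fixed (1347 at an unadjusted p under 0.05) or without the array of Ctrl 1 and Graphite 13 (2061). Sample numbers run on across the groups, so no number pairs Graphite with Ctrl. The arrays do pair samples of different groups, and the fit with array as a fixed term is the within-array analysis. Signals near the 40th percentile (5.69 to 5.75) limit the size of differences of dim genes.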
